A study of Mus musculus with 26 samples.

Results

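The Toll-like receptor genes were followed across monocytes and macrophages of mice with and without the atypical chemokine receptor ACKR2, a receptor that binds and clears inflammatory chemokines. The 10 members, Tlr1 to Tlr9 and Tlr13, were taken by gene name, and all 10 were among the 50104 genes listed for every cell type. RNA was sequenced from 26 samples of FACS sorted cells of naïve female mice. WT and ACKR2-/- groups held 4 samples each of bone marrow monocytes, 4 each of small peritoneal macrophages (SPMs) from peritoneal lavage and 5 each of MHCII negative macrophages from digested lung. The WT mice were C57BL/6J animals purchased from a commercial breeder and the ACKR2-/- mice, which lack the receptor in all cells, were bred in the animal facility of the study, so breeding site and genotype cannot be told apart. Cells of 5 mice were pooled into each monocyte and SPM sample. That pooling is described together with the monocytes and SPMs, and whether it also covers the lung samples is unclear. Mice were in general 8 to 10 weeks old.

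Toll-like receptors are membrane proteins through which innate immune cells recognise conserved microbial molecules. Tlr2, Tlr1, Tlr6, Tlr4 and Tlr5 act mainly at the cell surface, where Tlr2 pairs with Tlr1 or Tlr6 to bind bacterial lipopeptides, Tlr4 binds lipopolysaccharide together with the accessory protein encoded by Ly96, and Tlr5 binds flagellin. Tlr3, Tlr7, Tlr8, Tlr9 and Tlr13 sense nucleic acids in endosomes, where Tlr3 binds double-stranded RNA, Tlr7 and Tlr8 bind single-stranded RNA, Tlr9 binds unmethylated CpG DNA and Tlr13 binds bacterial ribosomal RNA. Most signal through the adaptor Myd88 to NF-kB and interferon regulatory factors, and macrophages of different tissues are known to carry different sets of these receptors.

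The libraries held between 12781144 and 35400034 counts assigned to genes. Levels are given as CPM, the read count of a gene scaled to a common library size, on a scale common to the 26 samples. Ackr2 itself had 0 reads in every ACKR2-/- monocyte and SPM sample, 5 to 9 reads in the WT SPM samples and 0 to 2 in the WT monocyte samples, and in the lung 7 to 50 reads in ACKR2-/- samples against 150 to 469 in 4 WT samples and 0 in WT replicate 5. The lung libraries held the macrophage markers Csf1r at 658 to 1897 CPM and Adgre1 at 202 to 487 CPM, the latter against 93.3 to 337 CPM in SPMs. Mertk, another macrophage marker, was low (0.737 to 13.5 CPM against 28.4 to 52.6 in SPMs), and the study describes these lung cells as MerTK negative by flow cytometry. The 8 macrophage markers together summed to 1701 to 10803 CPM in the lung and 18439 to 33136 CPM in SPMs. The summed level of 6 epithelial markers was 210 to 15488 CPM in the lung libraries against at most 9.82 in the other cell types. WT replicate 5 and ACKR2-/- replicate 4 were the low ones, at 334 and 210 CPM against 4404 to 15488 CPM in the other 8 lung libraries. The summed level of 4 MHC class II genes was 72034 CPM in WT lung replicate 3 and 3117 to 7728 CPM in the other lung libraries. In bone marrow monocytes the 9 neutrophil markers summed to 13511 to 82743 CPM. In bulk samples of this kind, fewer cells of a type and less RNA per cell cannot be told apart.

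**Figure D1:**
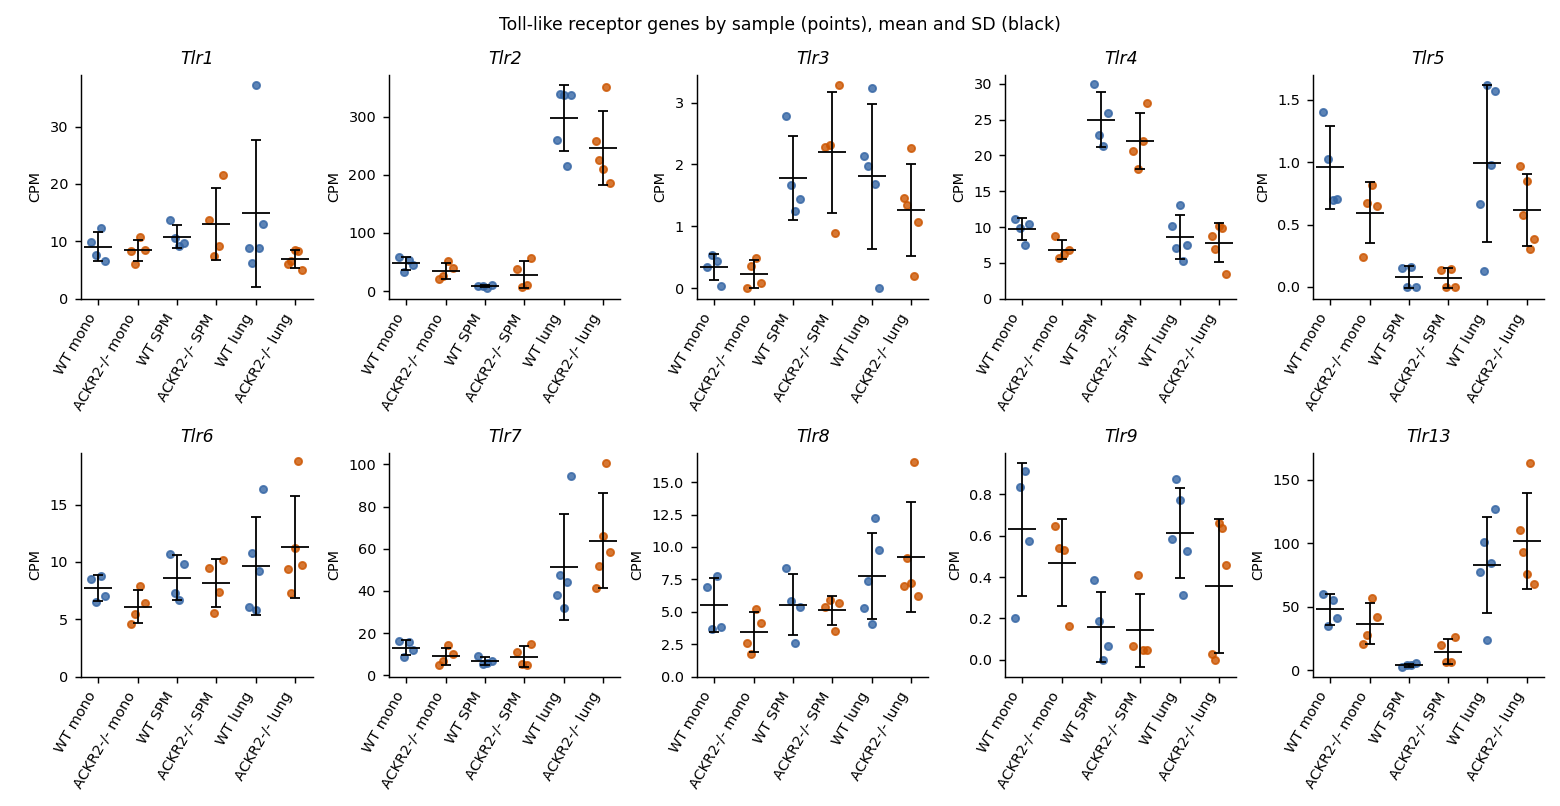
Level of each Toll-like receptor gene in CPM (vertical axis, linear and separate for each gene) in the 26 samples, by genotype and cell type. Each point is a sample and the black bars give the mean and SD. In WT samples Tlr2 had a mean of 8.21 CPM in SPMs and 298 CPM in lung macrophages. On this scale Tlr4 was higher in SPMs than in either of the other cell types.

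Tlr2 (chr3:83836272-83841767, minus strand, GRCm38) and Tlr13 (chrX:106143204-106160493, plus strand) showed the widest range. In WT monocytes Tlr2 was at 58.0, 33.0, 53.8 and 45.6 CPM, in WT SPMs at 8.48, 8.43, 6.06 and 9.89 CPM, and in WT lung macrophages between 216 and 339 CPM with a median of 338 CPM. These ranges did not overlap, so that Tlr2 was lowest in SPMs, intermediate in monocytes and highest in the lung. Tlr13 was at 60.2, 34.8, 55.6 and 40.9 CPM in WT monocytes, at 2.85, 4.07, 3.89 and 5.70 CPM in WT SPMs, and at 24.2 to 127 CPM (median 84.4) in WT lung macrophages. For Tlr13 the SPMs again lay apart below both other cell types, whereas the lowest lung library, WT replicate 3, fell below every WT monocyte library.

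Since Tlr2 and Tlr13 shared their low level in SPMs, the sequence around a start site of each is shown, 250 bases before to 50 after it, from RefSeq on GRCm38.p6 and written 5′ to 3′ on the strand of the gene (Tlr2, chr3:83841559-83841858, minus strand, and Tlr13, chrX:106143025-106143324, plus strand). Capitals mark letters of 5 motifs searched on both strands, namely the PU.1 core GAGGAA, the NF-kB motif GGANTTTCC, the AP-1 motif TGANTCA, the C/EBP motif TTGCNNAA and the interferon response motif GAAANNGAA.
Tlr2: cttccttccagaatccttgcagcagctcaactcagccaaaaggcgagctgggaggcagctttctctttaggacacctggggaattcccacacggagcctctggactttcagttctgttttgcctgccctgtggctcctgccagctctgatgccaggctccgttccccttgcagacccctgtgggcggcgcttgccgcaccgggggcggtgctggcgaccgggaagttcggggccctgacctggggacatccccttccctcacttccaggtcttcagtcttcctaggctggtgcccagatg
Tlr13: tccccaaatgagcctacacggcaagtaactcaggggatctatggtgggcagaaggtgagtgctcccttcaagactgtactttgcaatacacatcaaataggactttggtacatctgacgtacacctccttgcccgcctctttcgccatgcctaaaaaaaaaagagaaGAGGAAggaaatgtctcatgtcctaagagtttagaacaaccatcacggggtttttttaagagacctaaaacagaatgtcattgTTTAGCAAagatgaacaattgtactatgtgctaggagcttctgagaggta
The Tlr13 window held the PU.1 core at bases 168 to 173 and the C/EBP motif on the opposite strand in the 8 bases ending at base 258. The Tlr2 window held none of the 5, which says only that these letters are not in this window. Other forms of the same motifs, such as other NF-kB sites, were not searched. Of 32817 start site windows of the same length, 28.3% held the PU.1 core, 1.26% the NF-kB motif, 7.81% the AP-1 motif, 10.8% the C/EBP motif and 8.55% the interferon response motif. Windows were found for 8 of the 10 members. A match is a description of the sequence and was not tied to the levels by any test.

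Tlr4 (chr4:66827584-66930284), the receptor for lipopolysaccharide, had the opposite pattern. Its values were 11.1, 9.90, 7.47 and 10.4 CPM in WT monocytes, 30.0, 22.9, 21.3 and 25.95 CPM in WT SPMs and 5.24 to 13.1 CPM (median 7.43) in WT lung macrophages. On this common scale every SPM library of either genotype, the lowest at 18.1 CPM, lay above every monocyte and lung library. The separation depends on the scale, since with library sizes alone the WT log2 differences of Tlr4 were 0.25 and -0.35 and not called, as given below. The partners of Tlr2 were steadier. Tlr1 (chr5:64924679-64933563) had means of 9.07 ± 2.53 CPM in WT monocytes (SD, n = 4), 10.8 ± 2.0 CPM in WT SPMs (n = 4) and 14.8 ± 12.8 CPM in WT lung macrophages (n = 5), the last including 37.3 CPM in replicate 3 and 6.16 to 13.01 CPM in the others. Tlr6 (chr5:64952031-64960097), its neighbour on the chromosome, had means of 7.73 ± 1.12, 8.63 ± 1.94 and 9.65 ± 4.31 CPM in the same 3 groups, within the spread of each other. Tlr1 and Tlr6 share 7.89% and 7.09% of their 100-base transcript windows, so reads from these stretches cannot be assigned to either gene. No other pair of members shared such a window.

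The single-stranded RNA receptor Tlr7 (chrX:167304929-167330558) was at 8.82 to 16.2 CPM in WT monocytes, 5.37 to 9.41 CPM in WT SPMs and 31.9 to 94.6 CPM in WT lung macrophages. Its lung libraries lay above all monocyte and SPM libraries, while the monocyte and SPM ranges overlapped. Tlr8 (chrX:167242696-167264329), which lies beside Tlr7, did not follow it, with means of 5.54 ± 2.11 CPM in WT monocytes, 5.56 ± 2.36 CPM in WT SPMs and 7.76 ± 3.32 CPM in WT lung macrophages. The ratio of Tlr8 to Tlr7 in CPM was 0.322 to 0.496 in WT monocyte samples, 0.447 to 1.09 in WT SPM samples and 0.103 to 0.276 in WT lung samples.

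The remaining members were low in all groups. Tlr3 (chr8:45395665-45411080), the receptor for double-stranded RNA, had 0 to 12 reads per monocyte library, 8 to 66 per SPM library and 0 to 84 per lung library, with 0 in WT lung replicate 5, and an antisense transcript, Gm45542, shares 381 exon bases with it at no more than 11 reads in a sample. Tlr5 (chr1:182954788-182976044), the flagellin receptor, had 6 to 28 reads per monocyte library, 4 to 42 per lung library and 0 to 3 per SPM library. Over the group it had 3 reads in WT SPMs and 81 in WT monocytes, a ratio of 14.1 with a counting interval of 4.64 to 69.6, and 136 in WT lung macrophages, a ratio of 14.2 (4.74 to 69.5). In ACKR2-/- samples the same ratios were 8.35 (3.37 to 26.7) and 8.99 (3.73 to 28.3). These 95% intervals are exact binomial and cover counting error only. Tlr9 (chr9:106222598-106226883), the CpG DNA receptor, which lies 15.7 Mb from Ackr2, had 4 to 21 reads per monocyte library, 0 to 6 per SPM library and 0 to 28 per lung library, levels at which a difference between groups was hard to detect. Of the mouse receptors outside the members, Tlr11 had 21 to 147 reads per SPM library, 6 to 24 per monocyte library and 0 to 12 per lung library. Tlr12 had 0 to 46 reads per library, apart from 137 in WT lung replicate 3.

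Per kb of exon length, on which genes can be compared with each other, Tlr2 led in WT monocytes at 15.8 ± 3.66 CPM per kb (SD, n = 4), followed by Tlr13 at 11.1 ± 2.78 and by Tlr7 at 3.21 ± 0.847. Tlr2 and Tlr13 together thus made up 40.9% and 28.8% of the summed level of the 10 members, and their ranges overlapped. For Tlr13 a length of 4304 bases was used in every group, as given with the SPM counts, while 4086 bases were given with the monocyte counts. The effect of this difference on the level of Tlr13 in monocytes, or on its contrasts with monocytes, was not tested. In WT lung macrophages the same order held, with Tlr2 at 99.0 ± 18.9, Tlr13 at 19.2 ± 8.80 and Tlr7 at 12.6 ± 6.10 CPM per kb (n = 5), and Tlr2 made up 69.6% of the sum. In WT SPMs the order was Tlr4 at 4.50 ± 0.690, Tlr1 at 3.22 ± 0.599, Tlr2 at 2.73 ± 0.526 and Tlr6 at 2.32 ± 0.520 CPM per kb, and the last 3 lay within the spread of each other. Tlr13 was seventh there at 0.959 ± 0.273 CPM per kb. The summed level over the 10 members was 38.7 CPM per kb in WT monocytes, 17.4 in WT SPMs and 142 in WT lung macrophages.

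The cell types were compared in WT samples with the edgeR quasi-likelihood test in a fit of all 26 samples, with adjustment by Benjamini-Hochberg over 17792 genes, and calls required an adjusted p below 0.05 together with a log2 fold change beyond 0.5 in size. Cell type, tissue, sort and table cannot be told apart in these contrasts. From monocytes to SPMs 2 of the 10 members were called higher, where 21.8% of all genes tested were, and 3 lower, where 20.1% were. Tlr13 fell by 3.53 on the log2 scale (SE 0.49, adjusted p = 2.2e-06), Tlr2 fell by 2.52 (SE 0.44, adjusted p = 4.1e-05) and Tlr5 fell by 3.68 (SE 0.97, adjusted p = 0.0030). Without WT SPM replicate 1 the Tlr5 value was -4.61. Tlr4 rose by 1.37 (SE 0.29, adjusted p = 0.00033) and Tlr3 by 2.38 (SE 0.93, adjusted p = 0.041). The Tlr3 call was lost when any 1 of the 4 WT monocyte libraries or of WT SPM replicates 1, 2 and 4 was left out, with values of 2.001 to 2.67. Tlr7 had a difference of -0.93 with an adjusted p of 0.054. It was called lower when any 1 of 10 libraries was left out (WT monocyte replicate 2, ACKR2-/- monocyte replicates 1 and 3, WT SPM replicate 1, ACKR2-/- SPM replicates 2, 3 and 4, WT lung replicates 3 and 5 and ACKR2-/- lung replicate 4), with values of -1.14 to -0.93, and also without a filter, at -1.0006.

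From SPMs to lung macrophages 4 members were called higher, where 39.1% of all genes were, and 1 lower, where 23.2% were. Tlr2 rose by 5.17 (SE 0.48, adjusted p = 1.5e-09), or 36.0-fold, Tlr13 by 4.32 (SE 0.50, adjusted p = 5.6e-08), or 19.9-fold, Tlr7 by 2.90 (SE 0.40, adjusted p = 7.0e-07), or 7.47-fold, and Tlr5 by 3.73 (SE 0.94, adjusted p = 0.0014). The Tlr5 value was 4.65 without WT SPM replicate 1. Tlr4 fell by 1.54 (SE 0.27, adjusted p = 2.0e-05). From monocytes to lung macrophages 3 members were called higher, where 39.5% of all genes were, and 0 lower, where 24.4% were. These were Tlr2 with 2.65 (SE 0.42, adjusted p = 6.4e-06), Tlr7 with 1.97 (SE 0.37, adjusted p = 6.2e-05) and Tlr3 with 2.39 (SE 0.89, adjusted p = 0.021). The Tlr3 call was lost without WT monocyte replicate 4, at 2.02. Tlr13, at 0.79, was called without WT lung replicate 3, at 1.02, and Tlr1, at 0.71, without WT lung replicate 2, at 0.91.

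The scale between cell types matters for these values, since the TMM factors were 0.490 to 0.734 in SPM samples and 1.14 to 1.54 in the other samples. With library sizes alone the median log2 difference of all genes moved from 0 to -0.96 between monocytes and SPMs and from 0.41 to 1.62 between SPMs and lung macrophages. On that scale 0 members were called higher and 7 lower in SPMs than in monocytes, while 1615 genes were called higher and 8349 lower over all genes, and 8 members were called higher and 0 lower in the lung than in SPMs, with 11809 and 1685 over all genes. Tlr2, Tlr13 and Tlr5 were still called in the same direction in both contrasts. Tlr4 was not called, with 0.25 and -0.35.

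**Figure D2:**
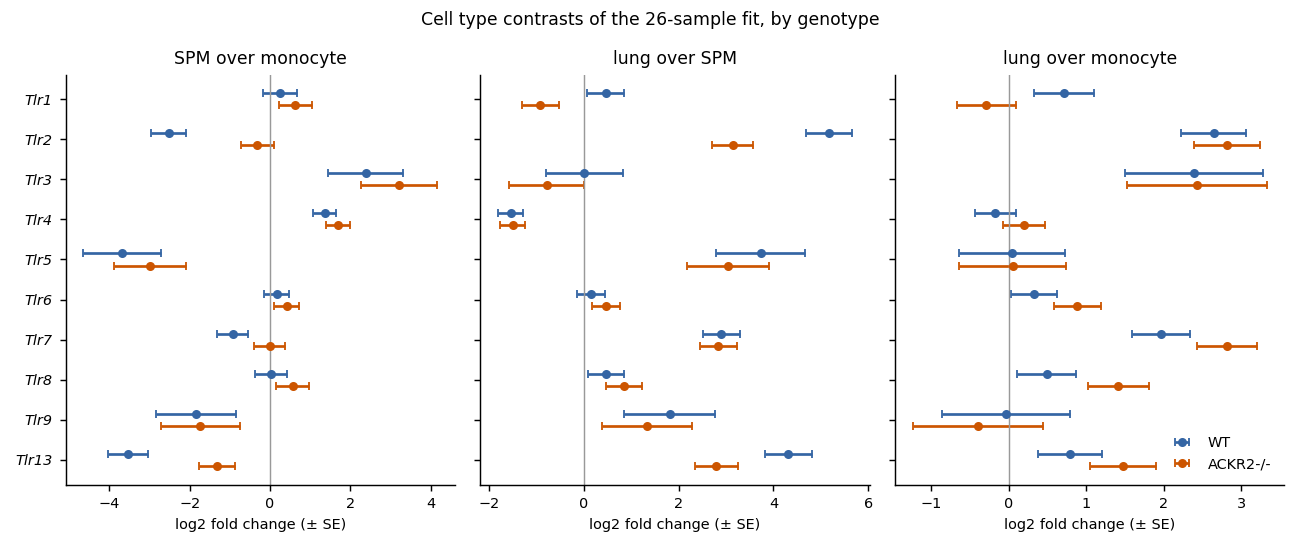
Log2 fold changes of the 10 Toll-like receptor genes (horizontal axis) between cell types, from the fit of 26 samples, in WT (blue) and ACKR2-/- (orange) samples, with approximate standard errors derived from the test statistic as bars. For Tlr2 the SPM over monocyte value was -2.52 in WT and -0.32 in ACKR2-/- samples.

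The same contrasts were made between the ACKR2-/- groups. From monocytes to SPMs 2 members were called higher, where 20.8% of all genes were, and 2 lower, where 19.5% were. Tlr4 and Tlr3 were called higher there, at 1.69 (SE 0.29) and 3.21 (SE 0.95), and Tlr5 and Tlr13 lower, at -2.98 (SE 0.89) and -1.32 (SE 0.44), whereas Tlr2 had a value of -0.32 (SE 0.41, edgeR adjusted p = 0.57). From SPMs to lung macrophages 4 were called higher, where 38.9% of all genes were, and 2 lower, where 24.7% were. The higher members were Tlr2 at 3.14 (SE 0.43), Tlr13 at 2.79 (SE 0.45), Tlr7 at 2.83 (SE 0.39) and Tlr5 at 3.04 (SE 0.87), and the lower ones were Tlr4 at -1.50 (SE 0.27) and Tlr1 at -0.92 (SE 0.39). From monocytes to lung macrophages 6 were called higher, where 37.6% of all genes were, and 0 lower, where 24.3% were, with Tlr2 at 2.82, Tlr7 at 2.82, Tlr3 at 2.43, Tlr13 at 1.47, Tlr8 at 1.41 and Tlr6 at 0.89. Whether a contrast differed between the genotypes is tested further on as a difference of genotype effects.

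**Figure D3:**
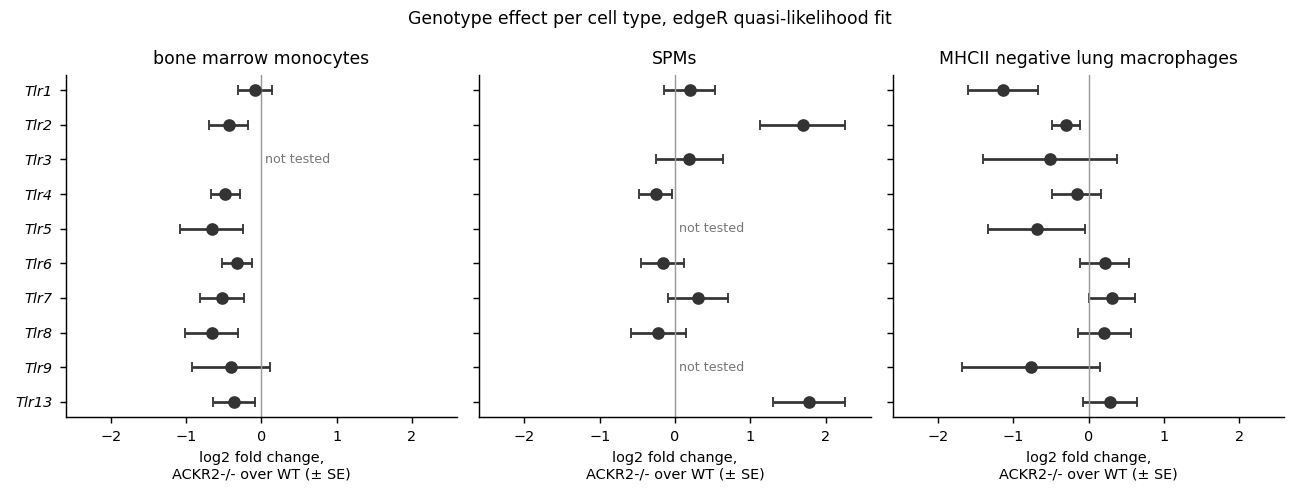
Log2 fold change of each Toll-like receptor gene, ACKR2-/- over WT (horizontal axis), in each cell type, with an approximate standard error derived from the test statistic as a bar. In monocytes all 9 tested members lay below 0, in SPMs Tlr2 and Tlr13 lay at 1.70 and 1.78, and in lung macrophages Tlr1 lay at -1.14, and none of these passed the adjusted test.

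In bone marrow monocytes the genotypes were compared to ask whether the absence of ACKR2 goes with a different state of cells before they enter tissues. With edgeR 0 of the 9 tested members were called, where 1.27% of the 13246 genes tested were, and DESeq2 also called 0. All 9 values lay below 0, from -0.09 for Tlr1 to -0.66 for Tlr8 and Tlr5, with a median of -0.43 against 0.00 over all genes. The member with an unadjusted p under 0.05 was Tlr4, at 8.68, 5.70, 6.19 and 6.72 CPM in ACKR2-/- samples, which is a log2 difference of -0.48 (SE 0.19, adjusted p = 0.23). In 1 of 16 pairs of samples an ACKR2-/- value lay above a WT value. Tlr2 was at 21.3, 26.2, 52.0 and 39.8 CPM and Tlr13 at 20.7, 27.4, 56.5 and 42.2 CPM in ACKR2-/- monocytes, ranges that overlapped the WT values given above.

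Much of the spread in monocytes was shared between some of the members. Tlr2, Tlr7, Tlr8 and Tlr13 had the same 3 highest libraries, WT replicates 1 and 3 and ACKR2-/- replicate 3, and the same 3 lowest, WT replicate 2 and ACKR2-/- replicates 1 and 2. Tlr1 and Tlr6 shared 3 of the highest and 2 of the lowest with Tlr2, and Tlr5 shared 2 and 2. Tlr3 shared 2 and 1, Tlr4 shared 1 and 1, and Tlr9 shared 1 and 0. The ratio of Tlr2 to Tlr13 in CPM stayed between 0.919 and 1.11 in the 8 monocyte libraries, although each gene alone varied from about 21 to about 60 CPM. The 3 lowest libraries had the lowest summed levels of the 8 macrophage markers, 353, 401 and 631 CPM against 716 to 1129 CPM in the others. Neutrophil markers summed to 82743, 48151 and 55780 CPM in these 3 libraries and to 40706, 36100 and 13511 CPM in the 3 highest. In the remaining libraries, WT replicate 4 and ACKR2-/- replicate 4, they summed to 60284 and 19277 CPM. Between the genotypes, the 6 monocyte markers summed to 7469 to 11414 CPM in ACKR2-/- samples and 12547 to 13781 CPM in WT samples, and the 10 T cell markers to 52.5 to 90.9 CPM against 2.86 to 3.72 CPM, with 1 of the 10 without a read in any WT sample. The part of these markers in the receptor levels was not tested.

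In SPMs the genotype comparison asked the same of macrophages in the peritoneal cavity. With edgeR 0 of the 8 tested members were called, where 0.0462% of the 12997 genes tested were, and DESeq2 also called 0. The largest values were those of Tlr13 and Tlr2, the members with an unadjusted p under 0.05. Tlr13 was at 19.9, 6.19, 6.59 and 26.3 CPM in ACKR2-/- SPMs against 2.85 to 5.70 CPM in WT SPMs, a log2 fold change of 1.78 (SE 0.48, adjusted p = 0.79). Every ACKR2-/- sample lay above every WT sample, as was so for 2.32% of 12680 genes, and the exact two-sided permutation test gave p = 0.029, the smallest that 4 against 4 samples allow, and 0.60 after adjustment over 30 tests. Tlr2 was at 37.8, 7.07, 10.7 and 56.1 CPM against 6.06 to 9.89 CPM, a log2 fold change of 1.70 (SE 0.57, adjusted p = 0.79), and its ranges overlapped. The values of both genes were thus high in ACKR2-/- replicates 1 and 4 and near the WT range in replicates 2 and 3.

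The same 2 libraries stood apart in other genes. Icam2, a marker of large peritoneal macrophages, was at 1375 and 1501 CPM in ACKR2-/- replicates 1 and 4 and 157 to 598 CPM in the other 6 SPM libraries. Marco, a scavenger receptor that stands in the alveolar list, was at 371 and 575 CPM against 9.41 to 58.7 CPM. The 6 markers of that list summed to 385 and 592 CPM against 23.9 to 78.1 CPM. In replicates 1 and 4 nearly all of this sum was Marco, so the list as a whole was not raised. Irf7 was at 151 and 476 CPM against 21.5 to 56.0 CPM. The 6 large peritoneal macrophage markers summed to 2119 and 2593 CPM against 429 to 1193 CPM, while Gata6, which defines these cells, was at 5.10 and 6.87 CPM against 1.67 to 4.53 CPM and Timd4 at 227 and 342 CPM against 47.0 to 313 CPM. Ly6c2, a monocyte gene, was at 684 and 1307 CPM against 27.0 to 101 CPM, while the 6 monocyte markers together summed to 2072 and 2403 CPM against 1253 to 3645 CPM. Retnla, a marker in the SPM list, was at 41475 and 35194 CPM against 66719 to 137918 CPM. Without both libraries, an omission chosen after seeing the data, the log2 fold change was 0.04 for Tlr2 and 0.57 for Tlr13. The part of the marker genes in the receptor levels was not tested.

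**Figure D4:**
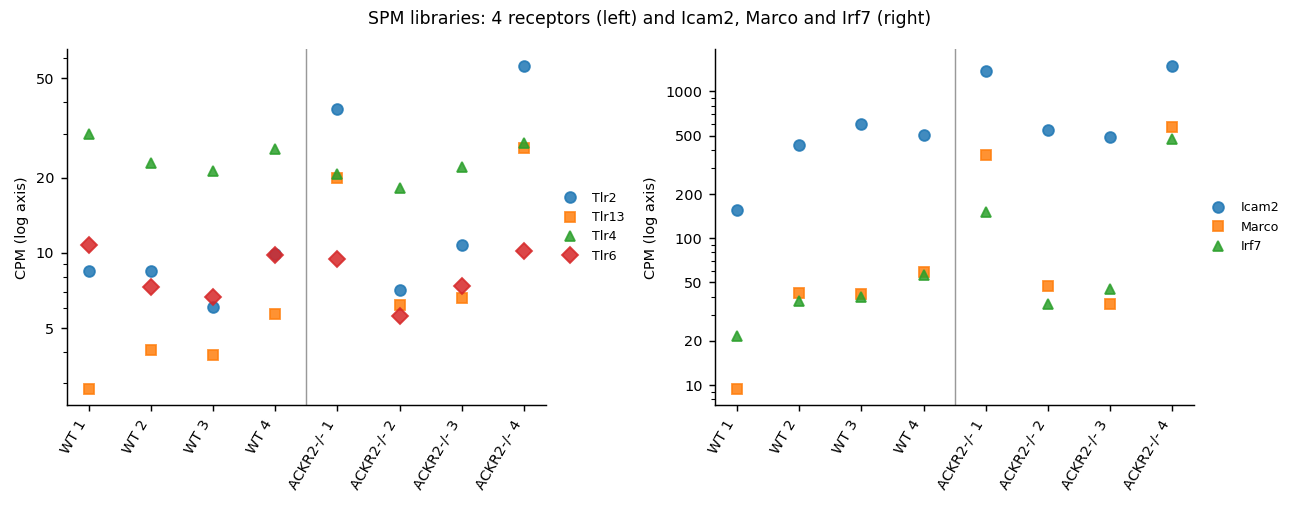
The 8 SPM libraries, with Tlr2, Tlr13, Tlr4 and Tlr6 in CPM on the left and Icam2, Marco and Irf7 in CPM on the right, both on log axes. Tlr2, Tlr13, Icam2, Marco and Irf7 were highest in ACKR2-/- replicates 1 and 4, while Tlr4 stayed between 18.1 and 30.0 CPM in all 8 libraries.

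The other tested members gave small values in SPMs, from -0.26 for Tlr4 (SE 0.22) to 0.30 for Tlr7 (SE 0.40), with adjusted p from 0.80 to 0.93. Tlr4 was at 20.6, 18.1, 22.1 and 27.4 CPM in ACKR2-/- SPMs. Tlr1 was at 13.8, 7.48, 9.20 and 21.6 CPM and Tlr7 at 11.03, 5.30, 4.69 and 14.7 CPM, so that replicates 1 and 4 were again the highest, and without these libraries both values turned negative, to -0.45 and -0.54. Over the 8 tested members the median was 0.19, and -0.05 over all genes. Leaving out replicate 4 alone gave 1.12 for Tlr2 and 1.35 for Tlr13.

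In MHCII negative lung macrophages 0 of 10 members were called by edgeR, where 0% of the 16824 genes tested were, and DESeq2 called 0 members. The member with an unadjusted p under 0.05 was Tlr1, at 5.96, 6.59, 8.50, 8.34 and 5.02 CPM in ACKR2-/- samples, with a log2 fold change of -1.14 (SE 0.46, adjusted p = 1.00). This value rested on WT replicate 3, the library with high MHC class II genes, since without it the value was -0.40. That library also had the lowest Tlr13 of the lung, at 24.2 CPM against 67.9 to 163 CPM in the other 9 libraries. Its ratio of Tlr2 to Tlr13 was 14.0, against 2.16 to 3.37 in the others. Tlr2, the most abundant member, was at 257, 226, 211, 352 and 185 CPM in ACKR2-/- lung samples, a log2 fold change of -0.30 (SE 0.19, adjusted p = 1.00). Tlr7 (0.31, SE 0.31) and Tlr13 (0.28, SE 0.36) also differed by less than the spread between samples, and over the 10 members the median was -0.23 against -0.04 over all genes.

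Whether the genotype effect differed between cell types was tested by interaction contrasts of the 26-sample fit. With edgeR 0 of 10 members passed an adjusted p of 0.05 in each pair of cell types, where 0.253% of all genes passed for SPMs against monocytes, 0.0393% for lung macrophages against SPMs and 0.152% for lung macrophages against monocytes. At an unadjusted p under 0.05 there were 2, 3 and 0 members, where 1328, 1095 and 1080 of 17792 genes were. DESeq2 called 1, 0 and 0 members, and no share over all genes is given for its calls. For SPMs against monocytes the difference was 2.21 for Tlr2 (SE 0.59, adjusted p = 0.17 by edgeR and 0.042 by DESeq2) and 2.21 for Tlr13 (SE 0.64, adjusted p = 0.23 by edgeR). For lung macrophages against SPMs it was -2.03 for Tlr2 (SE 0.56, adjusted p = 0.46), -1.53 for Tlr13 (SE 0.61, adjusted p = 0.775) and -1.38 for Tlr1 (SE 0.55, adjusted p = 0.775). Without ACKR2-/- SPM replicates 1 and 4 no member had an unadjusted p under 0.05 in any of these contrasts. The smaller fall of Tlr2 from monocytes to SPMs in ACKR2-/- than in WT samples therefore did not pass the edgeR test and rested on these 2 libraries.

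The wider pathway was described by 51 genes, of which 50 were tested in each cell type, and the same background shares apply to the edgeR calls. For the DESeq2 calls no share over all genes is given, so their counts are no result about the pathway. In monocytes 1 was called higher and 0 lower, with a median of -0.08. This gene was Wdfy1, known as an adaptor that links Tlr3 and Tlr4 to their signalling adaptor Ticam1. It was at 7.45, 10.1, 9.81 and 7.49 CPM in WT monocytes and 56.0, 52.1, 45.6 and 42.2 CPM in ACKR2-/- monocytes, which is a log2 difference of 2.51 (SE 0.15, adjusted p = 9.9e-06). In WT lung macrophages it was at 6.50 to 11.7 CPM and in ACKR2-/- lung macrophages at 18.8 to 30.6 CPM, ranges that did not overlap, a log2 fold change of 1.32 (SE 0.22) that had an adjusted p of 1.00 by edgeR and 0.000115 by DESeq2. In SPMs it was at 37.3 to 51.1 CPM in WT and 38.3 to 41.5 CPM in ACKR2-/- samples, which is a log2 difference of -0.25 (SE 0.19, adjusted p = 0.79). The genotype effect on Wdfy1 differed between SPMs and monocytes, by -2.67 (SE 0.28, edgeR adjusted p = 5.5e-06), and between lung macrophages and SPMs, by 1.52 (SE 0.27, edgeR adjusted p = 0.020).

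In monocytes a further 10 pathway genes had an unadjusted p under 0.05, all lower in ACKR2-/- samples. Of these, 4 were inhibitors, 3 adaptors and 1 each a cofactor, a kinase and a processing enzyme. For an unadjusted p no share over all genes is given in any cell type, so such counts are no result about the pathway. The smallest p of these 10 belonged to Tollip and Irak3, which restrain signalling from the receptors, at -0.46 (SE 0.12, adjusted p = 0.10) and -0.51 (SE 0.14, adjusted p = 0.11) by edgeR. Besides Wdfy1, DESeq2 called Irak3 at -0.51 (adjusted p = 0.045) and the adaptor Pik3ap1 at -0.77 (adjusted p = 0.043). The edgeR adjusted p of Pik3ap1 was 0.12. Tollip had a DESeq2 adjusted p of 0.035, but its value of -0.46 was short of the size required. In SPMs 0 of 50 genes were called by edgeR and 0 by DESeq2, and 2 had an unadjusted p under 0.05. These were Irf7, a transcription factor of the interferon response, at 2.15 (SE 0.71, adjusted p = 0.79), and Lbp, which carries lipopolysaccharide to its receptor, at 1.15 (SE 0.39, adjusted p = 0.79). The lower values with the smallest p were those of the chaperone Hsp90b1 at -0.42 (SE 0.19) and of Tab2, which joins Traf6 to its kinase, at -0.94 (SE 0.47). In the lung 0 of 50 were called by edgeR and 1, Wdfy1, by DESeq2, and besides it the smallest p among higher values was that of Tab2 at 0.39 (SE 0.37). Among lower values it belonged to the ubiquitin ligase Traf6 at -0.30 (SE 0.18) and to Cd14, which hands lipopolysaccharide to Tlr4, at -0.59 (SE 0.36).

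Between WT cell types the pathway genes were counted against all genes. From monocytes to SPMs 10 of 50 were called higher, where 21.8% of all genes were, and 16 lower, where 20.1% were. From SPMs to lung macrophages 27 were called higher, where 39.1% of all genes were, and 10 lower, where 23.2% were. From monocytes to lung macrophages 20 were called higher, where 39.5% of all genes were, and 4 lower, where 24.4% were. Several of these counts lay near the share over all genes and are no result about the pathway. All 6 ligand binding cofactors were called between monocytes and SPMs, 5 of them higher, but with library sizes alone Cd180 turned to -0.29 and Ly86 to 0.49, and neither was called. Named after their values were seen, Ly96, the partner of Tlr4, rose by 2.63 (SE 0.29, edgeR adjusted p = 4.5e-08) and Cd14 by 4.33 (SE 0.44, edgeR adjusted p = 1.3e-08). Ly96 fell by 2.57 from SPMs to lung macrophages (SE 0.26, edgeR adjusted p = 6.7e-09). Tlr4 also fell in this contrast, but was not called with library sizes alone. Cd14 had a value of 0.73 there (SE 0.36, edgeR adjusted p = 0.085) and a level in the lung of 818 ± 536 CPM (SD, n = 5). With library sizes alone Ly96 still had values of 1.41 and -1.29 in these contrasts and was called in both, and Cd14 from SPMs to lung macrophages had a value of 2.05 (edgeR adjusted p = 2.5e-05) and was called. Of the 9 inhibitors 8 were called higher in lung macrophages than in SPMs, where 39.1% of all genes were, and 0 lower, where 23.2% were, with a median of 1.42 against 0.41 over all genes.

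The genes nearest to each member in profile were sought among the 17792 genes tested, by the root mean square difference in log2 CPM over the 26 samples after centring each gene, as a description. Nearest to Tlr2 were Ptger4, a prostaglandin receptor, at 0.42, Itgb5, an integrin, at 0.52 and Dvl2 at 0.64. Among the 3 nearest to Tlr13 were Lpcat4 at 0.54 and Nod1, a cytosolic sensor of bacterial peptidoglycan, at 0.57. Tlr4 was nearest to Hdac9 (0.35), Slc39a10 (0.37) and Nck1 (0.37), and Tlr7 to Tnfrsf1b (0.33), Rnf149 (0.35) and Nfe2l2 (0.35). Among the 3 nearest to Tlr6 were the DNA sensor Aim2 at 0.27 and Secisbp2 at 0.27. Tlr1 was nearest to Pla2g15 (0.38), P2rx7 (0.42) and Deptor (0.43), and Tlr8 to Pik3r5 (0.33), Elmo2 (0.35) and Mob3b (0.35). Of the low members, Tlr5 was nearest to Cc2d1b (0.35), Coro2a (0.37) and Cnot10 (0.39), Tlr9 to Rrp12 (0.34), Tbc1d5 (0.35) and Kctd3 (0.35), and Tlr3 to Dlg4 (0.48), Sept8 (0.49) and Bhlhe41 (0.50). The samples of a cell type share tissue, sort and table.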

How the data were processed

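RNA of 26 samples was sequenced as poly-A libraries with SMARTer amplification. The deposited tables, 1 per cell type, hold unnormalized read counts for each gene as the authors made them. The submitters' processing notes name mm10, HISAT2 2.0.5, featureCounts 1.5.0-p3 and DESeq2, without saying which applied to which table. The lung table also holds 5 summary lines with 56.3% of its counts, which were left out. Amplified reads without molecular identifiers are not independent molecules, so that counting intervals cover counting error only.

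From the deposited counts, genotypes were compared per cell type with edgeR 4.0.16 in R 4.3.3 (filterByExpr with minimum count 10 and minimum total 15, TMM, quasi-likelihood test, Benjamini-Hochberg over all genes tested). A 26-sample fit over genes of all 3 tables gave cell type contrasts and interactions. Calls required an adjusted p below 0.05 together with a log2 fold change beyond 0.5 in size (interactions, the adjusted p alone). The SE printed with an edgeR value is its size divided by the square root of the F statistic of the test. It is thus an approximate standard error derived from the test, also for genes of few reads. DESeq2 1.42.0, other scalings and filters, a replicate block and left-out samples were alternatives. Levels are CPM with TMM factors of that fit, per kb of GENCODE M21 exon length where genes are compared, and profiles used log2(CPM + 0.5). Single genes were also tested by exact two-sided permutation of samples, which can go no lower than p = 0.029 (4 against 4) or 0.0079 (5 against 5). The fits were tested on simulated data. Total counts were 15450670 to 19218213 per monocyte sample, 12781144 to 35400034 per SPM sample and 19950019 to 29770252 per lung sample, at which 3 reads correspond to 0.0847 to 0.235 CPM. All 44 replicate pairs differed by more than sampling noise (chi-square per degree of freedom at least 10.6). The study describes its replicates as biological. How mice were divided between the sequenced samples is not detailed further, so p-values measure the spread between these samples.

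The members, the pathway list and the marker lists were chosen with earlier results of these data known. Named were the 10 members, Tlr11 and Tlr12 by counts, pathway genes called between genotypes and otherwise the 2 of smallest p per direction, Ackr2, marker genes that a result turns on, and 3 profile neighbours per member, of which 1 each for Tlr6 and Tlr13 is not reported here.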

Additional observations from a re-analysis of the deposited data

Results flagged for a closer look

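The highest or lowest sample of a group stood apart from the rest, by Dixon's ratio of gap to range, in 4 of 60 groups of member levels, where chance gives about 1 in 20. Tlr1 was at 37.3 CPM in WT lung replicate 3 and at 6.16 to 13.01 CPM in the other WT lung samples (ratio 0.780). Tlr7 was at 94.6 CPM in WT lung replicate 5 and at 31.9 to 47.5 CPM in the others (ratio 0.751). Tlr8 was at 16.5 CPM in ACKR2-/- lung replicate 4 and at 6.21 to 9.13 CPM in the others (ratio 0.716). Tlr9 was at 0.408 CPM in ACKR2-/- SPM replicate 2, from 6 reads, and at 0.0474 to 0.0689 CPM, from 1 read each, in the others (ratio 0.940). WT lung replicate 5 and ACKR2-/- lung replicate 4, which hold the Tlr7 and Tlr8 values, also had the lowest sums of epithelial markers, at 334 and 210 CPM against 4404 to 15488 CPM in the other lung libraries, of the 6 monocyte markers, at 153 and 125 CPM against 652 to 1489 CPM, and of the 5 fibroblast markers, at 63.5 and 45.6 CPM against 140 to 710 CPM. Their part in these values was not tested.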

How the results depend on the processing

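Of the counts of calls, 88 stayed within 1.5 times their value and 5 rose under alternatives other than leaving out 1 replicate, and 207 stayed and 1 rose when 1 replicate was left out. Most of these counts were 0 and stayed 0, and direction was not considered, so the tally is a weak measure of stability. With library sizes alone, for example, the 2 members called higher and 3 lower from WT monocytes to SPMs became 0 higher and 7 lower, which counted as unchanged. DESeq2, for which no share over all genes is given, called 3 pathway genes in monocytes, 1 in the lung and 1 member in the SPM against monocyte interaction. That interaction gave 0 to 1 member when 1 replicate was left out, and the 1 was Tlr2 without ACKR2-/- SPM replicate 2. With library sizes alone 8 members were called between lung macrophages and SPMs in WT samples, and 6 were called between lung macrophages and monocytes in the ACKR2-/- groups.

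Of single log2 differences, 413 kept direction and side of the threshold, 21 changed sign, 11 became called and 5 lost a call. With library sizes alone those that turned were Tlr1, Tlr6 and Tlr8 from monocytes to SPMs, at -0.875, -0.96 and -1.09, and Tlr9 from monocytes to lung macrophages, at 0.054. Tlr9 there was 0.037 by DESeq2 and 0.036 with RLE factors. Tlr3 from SPMs to lung macrophages was -0.057 by DESeq2 and -0.061 with RLE factors. Without a filter Tlr8 from monocytes to SPMs was -0.046. Without ACKR2-/- SPM replicates 1 and 4 the genotype values in SPMs were -0.45 for Tlr1, -0.27 for Tlr3 and -0.54 for Tlr7, and the Tlr1 interaction of SPMs against monocytes was -0.25. Without WT lung replicates 3 and 5 the genotype values in the lung were 0.10 for Tlr4 and 0.080 for Tlr5, Tlr1 was -0.43 against SPMs and -0.19 against monocytes, and Tlr5 was -0.70 against monocytes. Both omissions were chosen after seeing the data. The cause of these changes was not tested.

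With the replicate number as a block 0 members were called between genotypes in each cell type and in each interaction, 6 from monocytes to SPMs (Tlr7 in addition, at -0.93), 5 from SPMs to lung macrophages and 3 from monocytes to lung macrophages, and 1, 0 and 0 pathway genes. Under the block Tlr8 was -0.017 from monocytes to SPMs, Tlr3 -0.025 from SPMs to lung macrophages and Tlr5 -0.16 from monocytes to lung macrophages. Deviations of same-numbered WT and ACKR2-/- samples correlated at -0.0992 to 0.307 in monocytes, -0.0948 to 0.018 in SPMs and -0.0775 to 0.659 in the lung. The 0.659 belonged to the lung samples numbered 1. Whether same-numbered samples share more than a number remained unclear.

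When 1 replicate was left out, genotype values in monocytes ranged from -0.21 to 0.093 for Tlr1. In SPMs they ranged from -0.15 to 0.39 for Tlr1, -0.068 to 0.55 for Tlr3, -0.28 to 0.0089 for Tlr6, -0.039 to 0.56 for Tlr7 and -0.44 to 0.10 for Tlr8. In the lung they ranged from -0.30 to 0.094 for Tlr4, -0.0094 to 0.51 for Tlr6 and -0.062 to 0.47 for Tlr8. Between WT cell types Tlr8 ranged from -0.25 to 0.23 from monocytes to SPMs. From SPMs to lung macrophages the ranges were -0.23 to 0.66 for Tlr1, -0.30 to 0.33 for Tlr3 and -0.12 to 0.29 for Tlr6, and from monocytes to lung macrophages -0.20 to 0.33 for Tlr5 and -0.34 to 0.19 for Tlr9. Few reads limited Tlr3, Tlr5 and Tlr9.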
